A study of Homo sapiens with 4 samples.

Results

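The E2F factors and their DP partners, the transcription factors that switch genes of DNA replication on and off, were followed in Myla cells with FOXM1 knocked down. The members are the 10 genes E2F1 to E2F8, TFDP1 and TFDP2, taken by gene symbol, and each has 1 entry among the 58735 genes of the deposited expression table. Myla is a human cell line of mycosis fungoides, a T cell lymphoma of the skin. In the knockdown group (shFOXM1, labelled genotype FOXM1 knockdown, 2 libraries) the cells received lentivirus carrying hairpin RNA against FOXM1. In the comparison group (shControl, labelled genotype WT, 2 libraries) the hairpin was scrambled, so both groups were transduced. Each culture of 1 mL took 10 uL of virus medium, the medium was changed at 24 h, and RNA was taken after 72 h more. The table's columns sh1 and sh2 are called shFOXM1 1 and shFOXM1 2 here, and its columns sh0_1 and sh0_2 shControl 1 and shControl 2. The labels do not say whether sh1 and sh2 are the same hairpin. Nor do they say whether cultures were transduced separately, so each test reflects library-to-library spread alone, possibly technical in origin.

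E2F proteins bind DNA at the promoters of genes needed for S phase. E2F1, E2F2 and E2F3 are the activators, which the retinoblastoma protein RB1 holds back until cyclin-dependent kinases phosphorylate it. E2F4 and E2F5 mostly repress, together with the pocket proteins RBL1 and RBL2, and E2F6 represses without a pocket protein, through Polycomb complexes. These 6 bind DNA as dimers with a DP protein, TFDP1 or TFDP2. E2F7 and E2F8, the atypical members, carry a pair of DNA-binding domains, need no DP partner, and repress E2F target genes late in S phase, E2F1 among them. FOXM1 acts later in the cycle, on genes of G2 and mitosis, and is itself known as an E2F target.

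The promoters of the activators carry the letters that E2F proteins are known to bind, and are shown beside those of TFDP1, which carries 1 such site, and of E2F4 and E2F7, which carry none. RefSeq promoter sequences (GRCh38.p14, 250 bases before to 50 after the start site) were matched by symbol for 8 members. Those of E2F5 and E2F8 were not analysed here. A canonical E2F site was searched on both strands as TTTCCCGC, TTTCGCGC, TTTGCCGC or TTTGGCGC, and after the members' promoters had been read also as TTTCCCGG, TTTCGCGG, TTTGCCGG or TTTGGCGG. The cell cycle homology element (CHR), where MuvB complexes bind with FOXM1 or B-MYB, was searched as TTTGAA or TTCGAA, and the forkhead core as TGTTTA. In the lines that follow, 200 bases from 150 before the start site to 50 after it run 5′ to 3′ on the gene's strand, and capitals mark any of these motifs:
E2F1 (chr20:33686336-33686535, minus strand): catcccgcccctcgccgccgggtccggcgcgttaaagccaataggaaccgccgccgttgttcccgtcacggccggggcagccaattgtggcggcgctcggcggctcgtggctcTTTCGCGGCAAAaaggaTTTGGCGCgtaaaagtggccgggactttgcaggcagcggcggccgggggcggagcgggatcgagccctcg
E2F2 (chr1:23531184-23531383, minus strand): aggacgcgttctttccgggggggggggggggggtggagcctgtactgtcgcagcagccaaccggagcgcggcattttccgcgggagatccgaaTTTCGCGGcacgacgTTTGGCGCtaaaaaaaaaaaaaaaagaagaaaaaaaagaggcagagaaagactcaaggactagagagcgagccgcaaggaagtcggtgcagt
E2F3 (chr6:20401729-20401928, plus strand): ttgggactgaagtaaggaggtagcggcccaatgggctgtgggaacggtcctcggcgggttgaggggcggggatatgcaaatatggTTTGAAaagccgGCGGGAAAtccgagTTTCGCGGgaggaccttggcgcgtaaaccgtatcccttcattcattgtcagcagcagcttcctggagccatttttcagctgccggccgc
E2F4 (chr16:67192005-67192204, plus strand): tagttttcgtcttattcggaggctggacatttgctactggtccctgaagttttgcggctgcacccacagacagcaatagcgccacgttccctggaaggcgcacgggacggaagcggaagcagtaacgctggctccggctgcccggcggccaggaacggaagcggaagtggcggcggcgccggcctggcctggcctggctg
E2F7 (chr12:77065520-77065719, minus strand): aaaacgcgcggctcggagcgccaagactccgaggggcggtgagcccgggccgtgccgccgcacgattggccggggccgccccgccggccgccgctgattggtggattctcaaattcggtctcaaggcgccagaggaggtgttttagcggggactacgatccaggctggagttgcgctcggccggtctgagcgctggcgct
TFDP1 (chr13:113584603-113584802, plus strand): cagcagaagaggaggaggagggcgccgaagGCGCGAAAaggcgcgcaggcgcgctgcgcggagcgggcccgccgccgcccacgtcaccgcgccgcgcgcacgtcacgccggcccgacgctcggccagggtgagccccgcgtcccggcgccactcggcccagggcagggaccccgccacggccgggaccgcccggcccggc

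E2F1 holds TTTCGCGG from position -37 and TTTGGCGC from -20, counted from the start site, and a minus-strand TTTGCCGC whose letters share 4 bases with the TTTCGCGG. E2F2 has the same pair of sites, TTTCGCGG from -57 and TTTGGCGC from -42. E2F3, at the first of its 2 listed starts, holds TTTCGCGG from -39 and a minus-strand TTTCCCGC from -53, with a CHR sequence from -65. Its second start, further into the gene, holds none of the motifs. TFDP1 has a minus-strand TTTCGCGC from -120, while E2F4 and E2F7 hold none of the searched letters in their 300 bases. E2F6 (2 hits) and the first of 3 listed starts of TFDP2 (1 hit) have, of the E2F site, only the added form. Of all 35116 promoters in the RefSeq table, 3.31% hold the first form of the site, 3.03% the added form and 0.157% (55 promoters) both forms, as the 3 activators do. The added letters were taken from these same promoters, so that share is no independent comparison. The CHR letters are in 16.4% of the promoters and the forkhead core in 12.3%, of the members only in TFDP2 for the forkhead core and in E2F3 and TFDP2 for the CHR letters. A match is a run of letters and not a measured binding site.

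Recovered whole reads numbered from 14147084 to 15017728 per library, so that a single read on 1 kb of gene equalled 0.0656 to 0.0705 FPKM (fragments per kilobase of gene, scaled to library size). FOXM1, the targeted gene, was at 9.27 and 5.59 FPKM in shFOXM1 1 and 2, against 26.5 and 27.6 FPKM in shControl 1 and 2. Its log2 fold change was -1.77 (SE 0.23; limma, adjusted p = 0.173). It was -2.09 without shFOXM1 1, -1.45 without shFOXM1 2, -1.80 without shControl 1 and -1.74 without shControl 2. With all libraries, FOXM1 passed in voom with library weights at -1.89 (adjusted p = 0.0190), but not in voom without them (adjusted p = 0.123). Of 12 T cell markers 7 reached the level tested, with CD3D at 95.1 to 154 FPKM and TRBC2 at 168 to 211 FPKM, whereas CD4 was listed at 0 and CD3E did not exceed 0.138 FPKM. Summed over 5 markers each, B cell genes were at 0.378 and 7.80 FPKM in shFOXM1 against 1.92 and 1.71 FPKM in shControl, and keratinocyte genes at 2.41 and 8.36 against 5.71 and 4.51 FPKM. The monocyte sum was 13.6 and 8.53 against 13.0 and 9.18 FPKM, and the fibroblast and endothelium sum 48.3 and 20.4 against 27.02 and 25.4 FPKM. Most of each sum came from 1 gene: CD79A, CDH1, CSF1R and COL3A1 in the order given. COL3A1 was at 45.1 and 15.9 FPKM in shFOXM1 against 24.5 and 22.7 FPKM in shControl. Besides COL1A1, at 2.50 to 4.48 FPKM, the other markers in these sums did not exceed 0.288 FPKM. MS4A1, KRT1, KRT14 and EPCAM were at 0 in every library. The part of these genes in the results was not tested. The shFOXM1 libraries stood further apart from each other than the shControl libraries, with an SD over tested genes of their log2 difference of 0.424 against 0.263.

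**Figure D1:**
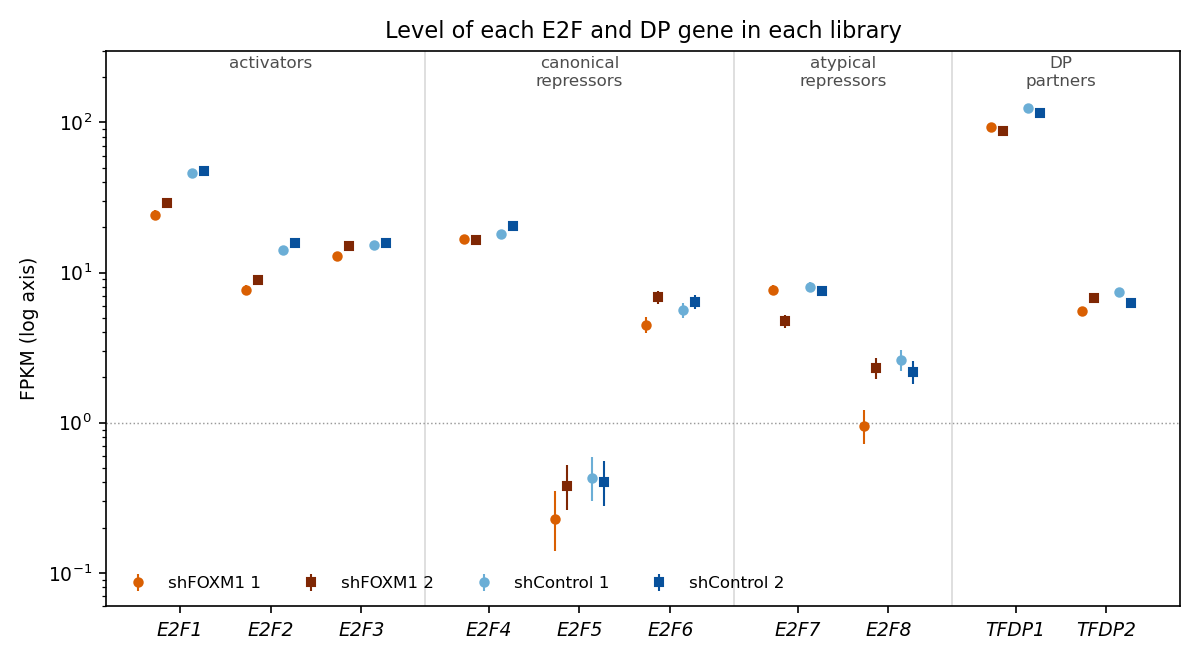
FPKM (log axis) of the 10 members in each library, with 95% exact Poisson intervals of the reads behind each value (counting error only). The dotted line marks 1 FPKM. E2F1, E2F2 and TFDP1 lie lower in both shFOXM1 libraries, while E2F6, E2F7, E2F8 and TFDP2 overlap between the groups.

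E2F1 and E2F2, both activators, had the lowest fold changes among the tested members, though neither passed the test over all genes. E2F1 (ENSG00000101412, chromosome 20, 33675683 to 33686404, minus strand, GRCh38) was at 24.3 and 29.2 FPKM in shFOXM1 1 and 2, against 45.8 and 47.3 FPKM in shControl 1 and 2. No shFOXM1 value reached either shControl value, on 899 and 1112 reads against 1628 and 1748. The means were 26.7 ± 3.46 FPKM and 46.6 ± 1.07 FPKM (SD, n = 2 each), a ratio of shFOXM1 to shControl of 0.573. The log2 fold change, on the log2(FPKM + 1) scale, was -0.79 (SE 0.13, 95% interval -1.12 to -0.45), which was not past the 0.05 threshold (limma, adjusted p = 0.176). In bulk RNA, fewer cells expressing a gene and less RNA of it per cell cannot be told apart. Only 1.57% of the tested genes had a more negative fold change than E2F1. Without shFOXM1 1 the fold change was -0.66 and without shFOXM1 2 it was -0.91. Those fits assume that the remaining shFOXM1 library varies like the shControl pair. Without shControl 1 the fold change was -0.81 and without shControl 2 it was -0.76. In these fits the wider shFOXM1 pair alone sets the spread.

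E2F2 (ENSG00000007968, chromosome 1, 23506430 to 23531220, minus strand) showed nearly the same difference at a lower level. Its values were 7.64 and 8.96 FPKM in shFOXM1 1 and 2, against 14.2 and 15.8 FPKM in shControl 1 and 2, and the groups did not overlap. The means were 8.30 ± 0.934 and 15.0 ± 1.17 FPKM (SD, n = 2 each), a ratio of 0.554, and the log2 fold change was -0.78 (SE 0.13; limma, adjusted p = 0.176). The fold change was -0.68 without shFOXM1 1 and -0.89 without shFOXM1 2. It was -0.86 without shControl 1 and -0.71 without shControl 2. Of the shFOXM1 libraries, shFOXM1 1 had the lower level of E2F1, E2F2, E2F3, E2F5, E2F6, E2F8 and TFDP2. FOXM1, E2F7 and TFDP1 were lower in shFOXM1 2, and E2F4 was nearly equal. A link to the FOXM1 level was not tested.

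E2F3 (ENSG00000112242, chromosome 6, 20401906 to 20493715, plus strand), the activator with a long and a short form from separate start sites, stayed close to its control level. It had 12.8 and 14.9 FPKM in shFOXM1 1 and 2, against 15.2 and 15.8 FPKM in shControl 1 and 2, where shFOXM1 2 was only just below shControl 1. The counting intervals of those libraries overlapped, at 14.1 to 15.8 FPKM for shFOXM1 2 and 14.3 to 16.1 FPKM for shControl 1. The log2 fold change was -0.15 (SE 0.12; limma, adjusted p = 0.553), with a 95% interval from -0.48 to 0.17. It was -0.05 without shFOXM1 1 and -0.26 without shFOXM1 2. That interval overlapped the E2F1 interval at its lower end, and the difference between E2F3 and the other activators was not tested. The table gives 1 value for the gene, so the forms of E2F3 cannot be told apart.

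**Figure D2:**
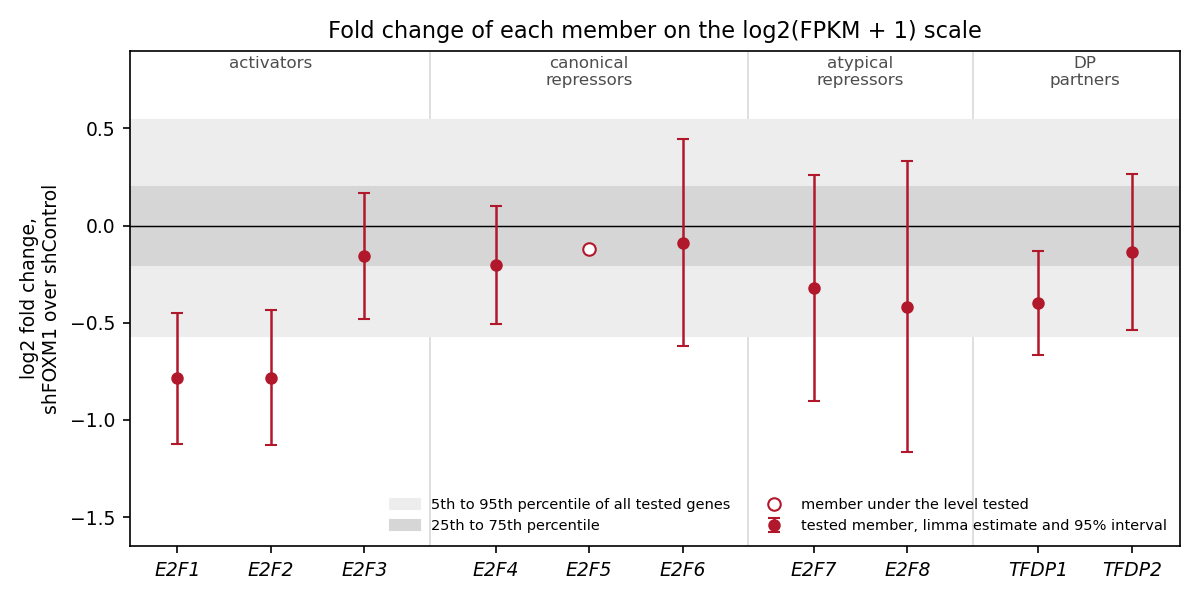
Log2 fold change of each member, shFOXM1 over shControl, with limma's 95% interval, against the spread of all 12033 tested genes (grey bands). E2F1 and E2F2 lie below the 5th percentile of all genes, at -0.57, and the open circle is E2F5, which was under the level tested.

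Of the tested canonical repressors, E2F4 and E2F6, only E2F4 had groups that did not overlap, as had 25.9% of all tested genes with shFOXM1 lower. E2F4 (ENSG00000205250, chromosome 16, 67192169 to 67198918, plus strand), the main E2F of resting cells, was at 16.6 FPKM in each shFOXM1 library, against 18.1 and 20.4 FPKM in shControl 1 and 2. Both shFOXM1 values were below both shControl values, by a log2 fold change of -0.20 (SE 0.12, limma adjusted p = 0.418), or -0.12 without shControl 2. The counting intervals of shFOXM1 1 and 2, from 15.6 to 17.8 and from 15.5 to 17.7 FPKM, overlapped that of shControl 1. That interval ran from 17.0 to 19.3 FPKM. E2F5 (ENSG00000133740, chromosome 8, 85177225 to 85217158, plus strand), which also works with pocket proteins, was scarce: 20 and 34 reads in shFOXM1, against 36 and 35 reads in shControl, gave 0.228 and 0.376 against 0.428 and 0.400 FPKM. It was not tested, and at this depth no difference could be told, as the counting interval of shFOXM1 1, from 0.139 to 0.352 FPKM, overlapped those of both shControl libraries. An opposite-strand gene, C8orf59, shares 969 of E2F5's 5928 exon bases. The strand setting of the counting is not given in the sources used here, so reads there are uncertain. E2F6 (ENSG00000169016, chromosome 2, 11444375 to 11466177, minus strand) had the lowest and the highest value of its 4 libraries within shFOXM1. It was at 4.50 and 6.84 FPKM in shFOXM1 1 and 2, against 5.60 and 6.38 FPKM in shControl 1 and 2, with a log2 fold change of -0.09 (SE 0.21; limma, adjusted p = 0.852). The sign turned with the library left out, at 0.17 without shFOXM1 1 and -0.34 without shFOXM1 2.

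The atypical repressors each had 1 shFOXM1 library at the control level and 1 well below it, and not the same one. E2F7 (ENSG00000165891, chromosome 12, 77021247 to 77065580, minus strand) was at 7.69 and 4.73 FPKM in shFOXM1 1 and 2, against 8.04 and 7.59 FPKM in shControl 1 and 2. In shFOXM1 1 it lay between the controls, and in shFOXM1 2 its counting interval, from 4.30 to 5.18 FPKM, lay below those of all other libraries. The log2 fold change was -0.32 (SE 0.22, limma adjusted p = 0.492), or -0.62 without shFOXM1 1 and -0.02 without shFOXM1 2. E2F8 (ENSG00000129173, chromosome 11, 19224063 to 19241620, minus strand) showed the opposite order, at 0.947 and 2.30 FPKM in shFOXM1 1 and 2, against 2.62 and 2.16 FPKM in shControl 1 and 2. It rested on 58 and 145 reads against 154 and 132, and the counting interval of shFOXM1 1, from 0.719 to 1.22 FPKM, lay below the others, the nearest of which began at 1.81 FPKM. Its log2 fold change was -0.42 (SE 0.29, limma adjusted p = 0.490), or -0.80 without shFOXM1 2 and -0.04 without shFOXM1 1. An antisense gene shares 7 bases with the exons of E2F8 and was at 0.137 FPKM or less.

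Of the DP partners, TFDP1 was lower in shFOXM1 and TFDP2 was not clearly so. TFDP1 (ENSG00000198176, chromosome 13, 113584721 to 113641470, plus strand), the main partner of the dimers, was the most abundant member in every library. It was at 93.0 and 88.0 FPKM in shFOXM1 1 and 2, against 124 and 115 FPKM in shControl 1 and 2, and the groups did not overlap. The means were 90.5 ± 3.55 and 120 ± 6.45 FPKM (SD, n = 2 each), a ratio of 0.757, with a log2 fold change of -0.40 (SE 0.10, 95% interval -0.66 to -0.13; limma, adjusted p = 0.196). The fold change was -0.44 without shFOXM1 1, -0.36 without shFOXM1 2, -0.34 without shControl 1 and -0.45 without shControl 2. TFDP2 (ENSG00000114126, chromosome 3, 141944428 to 142149544, minus strand), the second DP protein, was at 5.55 and 6.80 FPKM in shFOXM1 1 and 2, against 7.46 and 6.28 FPKM in shControl 1 and 2. The groups overlapped, and the log2 fold change was -0.13 (SE 0.15; limma, adjusted p = 0.677). It was -0.01 without shFOXM1 1 and -0.03 without shControl 1, against -0.26 without shFOXM1 2 and -0.24 without shControl 2. TFDP3, the DP paralog that the table also places in the E2F family, was at 0 in every library.

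**Figure D3:**
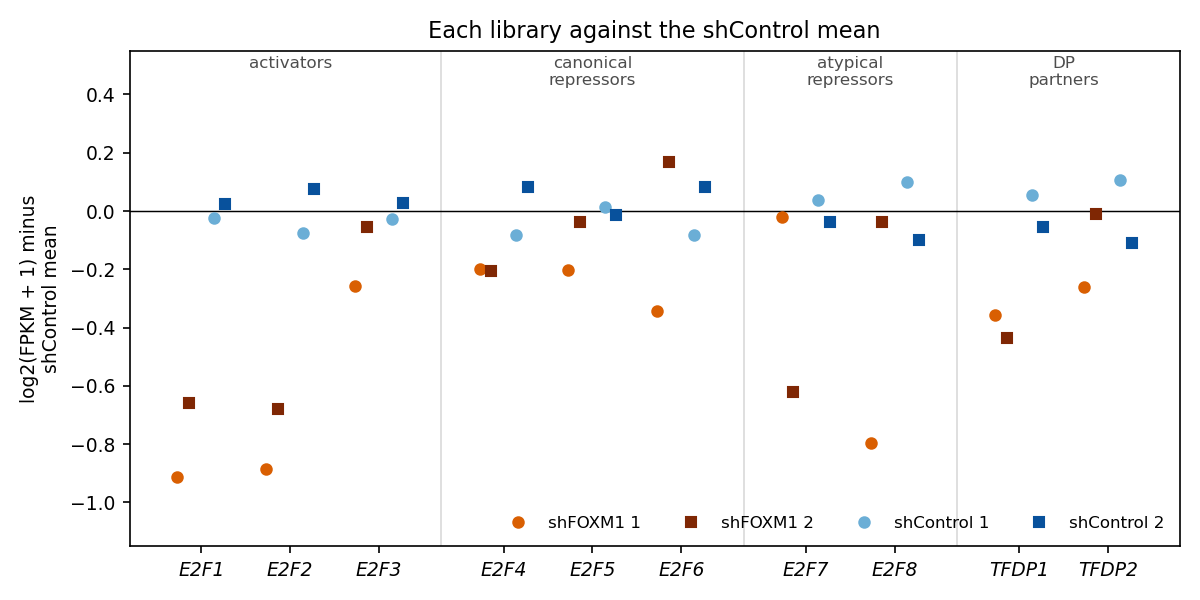
Log2(FPKM + 1) of each library minus the mean of the shControl libraries, for each member. Each shFOXM1 library lies below each shControl library for E2F1 to E2F4 and TFDP1, as for 25.9% of all tested genes. For E2F3 and E2F4 some counting intervals overlap between the groups. E2F5 has the same order but was not tested, and no difference could be told at its depth. E2F7 is low only in shFOXM1 2 and E2F8 only in shFOXM1 1.

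Counted together, 9 of the 10 members reached the level tested, and all 9 had a log2 fold change below 0, as did 50.1% of the 12033 tested genes. None of the 9 passed limma's test in either direction, where 0% of all tested genes were called lower and 0% higher. Over all tested genes, 1082 were lower and 1061 higher at an unadjusted limma p under 0.05, voom on recovered reads called 0 in each direction, and voom with library weights called 9 lower and 22 higher, none of them a member. At an unadjusted limma p under 0.05, 3 of the 9 (E2F1, E2F2 and TFDP1) were lower, against 8.99% of all tested genes, and 0 were higher, against 8.82%. The groups did not overlap, with shFOXM1 lower, for 5 of the 9 (E2F1, E2F2, E2F3, E2F4 and TFDP1), against 25.9% of all tested genes. With shFOXM1 2 left out this held for 8 of the 9 members and 38.7% of all tested genes, and with shControl 2 left out for 8 members and 33.1%, since non-overlap is easier to meet with fewer libraries. They did not overlap with shFOXM1 higher for 0 members, against 27.3% of all genes. The median log2 fold change of the 9 was -0.32, and that of all tested genes was -0.00075.

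Within the family the order of mean FPKM, a level per gene length, was the same in both groups: TFDP1, E2F1, E2F4, E2F3, E2F2, E2F7, TFDP2, E2F6, E2F8 and E2F5. In shFOXM1 the ranges of E2F2, E2F7, TFDP2 and E2F6 each overlapped with the next. E2F2 overlapped E2F7 alone and lay above TFDP2 and E2F6, whose ranges overlapped each other's and that of E2F7. In shControl only E2F3 with E2F2 and TFDP2 with E2F6 overlapped. E2F2 thus overlapped E2F7 and not E2F3 in shFOXM1 cells, and E2F3 and not E2F7 in shControl cells.

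The make-up of the E2F transcripts differed between the groups. Summed FPKM of the activators was 44.7 and 53.0 in shFOXM1 1 and 2, against 75.2 and 79.0 in shControl 1 and 2. The canonical repressors E2F4 to E2F6 summed to 21.4 and 23.8 FPKM in shFOXM1, against 24.1 and 27.2 FPKM in shControl, and the atypical repressors to 8.63 and 7.03 against 10.7 and 9.75 FPKM. E2F1 made up 32.5 and 34.8% of the summed E2F1 to E2F8 level in shFOXM1 1 and 2, against 41.7 and 40.8% in shControl 1 and 2. E2F4 made up 22.3 and 19.8% in shFOXM1 and 16.5 and 17.6% in shControl, and E2F3 17.2 and 17.8% in shFOXM1 and 13.8 and 13.7% in shControl. Neither E2F3 nor E2F4 had a higher FPKM in shFOXM1, so their larger shares reflect a smaller sum. That sum was 74.7 and 83.8 FPKM in shFOXM1, against 110 and 116 FPKM in shControl. The activators outweighed the canonical repressors 2.09 and 2.23 times in shFOXM1, against 3.11 and 2.90 times in shControl. On the log2 scale this ratio was 1.11 ± 0.0643 in shFOXM1 and 1.59 ± 0.0722 in shControl (SD, n = 2 each), a difference of -0.48 with groups that did not overlap. With E2F1 and E2F4 left out of the sums the difference was -0.33. A comparison of 2 libraries with 2 cannot give an exact two-sided permutation p below 0.333, so none is given. The DP sum was 1.49 and 1.23 times the sum of the DP-dependent E2F1 to E2F6 in shFOXM1, against 1.32 and 1.14 times in shControl, which overlapped.

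**Figure D4:**
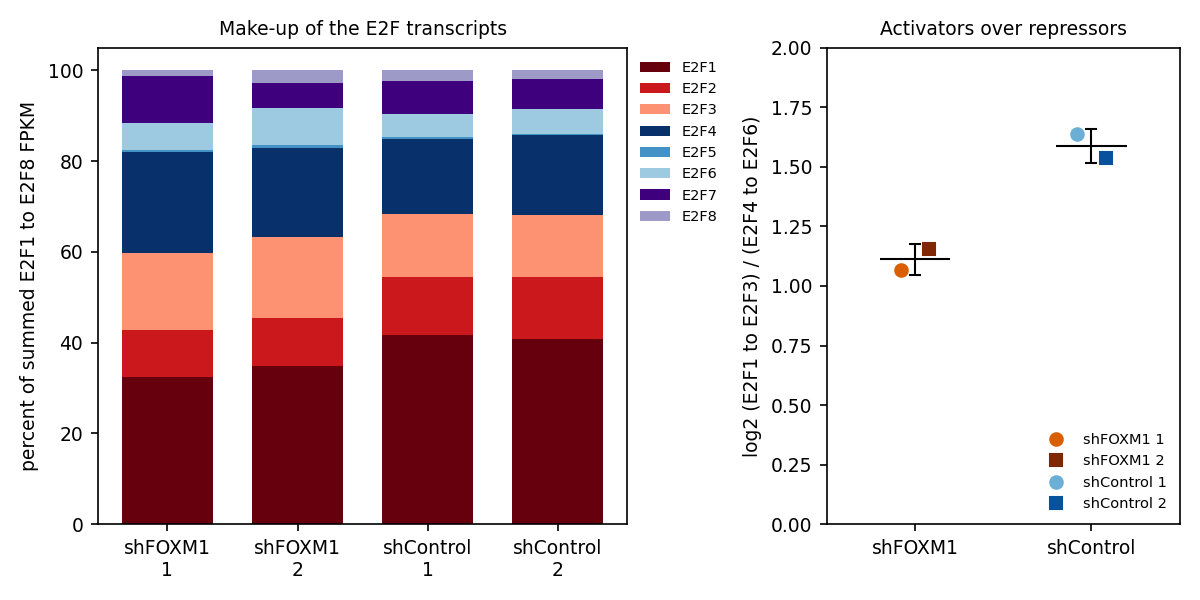
Left, percent of the summed E2F1 to E2F8 FPKM held by each gene in each library. Right, log2 ratio of summed activators E2F1 to E2F3 over summed canonical repressors E2F4 to E2F6, with points for libraries and lines for the mean ± SD: 1.11 in shFOXM1 and 1.59 in shControl.

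Most of the 36 listed genes, which E2F proteins are known to drive at the entry to S phase, had lower levels in shFOXM1. None passed the main limma test over all genes. The list was chosen with earlier results of these data known, so its counts are no independent comparison with all genes. Of the 36 listed, all of them tested, 0 passed limma's test, and 32 were lower and 0 higher at an unadjusted p under 0.05 (8.99 and 8.82% of all tested genes), and 34 did not overlap with shFOXM1 lower (25.9% of all). Their median log2 fold change was -0.57. UHRF1, a factor of DNA methylation upkeep, was at 28.1 and 28.5 FPKM in shFOXM1 1 and 2, against 61.9 and 59.8 FPKM in shControl 1 and 2. Its groups lay far apart, and it had a log2 fold change of -1.08 (SE 0.10; limma, adjusted p = 0.173). TK1, the thymidine kinase, stood at -1.05 (SE 0.10), and MYBL2, the B-MYB protein, at -1.05 (SE 0.13), with the same adjusted p in limma. Without shFOXM1 1 and 2 in turn, UHRF1 stood at -1.07 and -1.09, TK1 at -1.02 and -1.09 and MYBL2 at -1.19 and -0.92. Without shControl 1 and 2 in turn, UHRF1 stood at -1.05 and -1.10, TK1 at -1.02 and -1.09 and MYBL2 at -1.02 and -1.08. With all libraries, UHRF1, TK1 and MYBL2 passed in voom with library weights (adjusted p = 0.0266, 0.0363 and 0.0285). In voom without weights they did not (adjusted p = 0.123 for each). The exceptions, picked out after their values were seen, were CDC25A, a phosphatase that activates CDK2, and POLA2, a subunit of the priming polymerase. CDC25A was at 33.1 and 22.6 FPKM in shFOXM1 against 28.6 and 32.5 FPKM in shControl, and POLA2 at 2.45 and 2.25 against 2.07 and 2.45 FPKM, so both overlapped. Among the 32 listed genes with a RefSeq promoter, 17 held the first form of the E2F site and 20 either form, beside 3.31 and 6.19% of all promoters. These genes were listed as known E2F targets, and the added form was taken from the members' promoters. The shares are therefore no independent comparison.

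The proteins that set E2F activity differed in direction. Of 22 listed pocket proteins, cyclins, kinases and inhibitors, 18 were tested and 0 passed limma, with 7 lower and 1 higher at an unadjusted p under 0.05 (8.99 and 8.82% of all tested genes) and a median of -0.32. RB1, the pocket protein of the activators, was at 19.5 and 18.1 FPKM in shFOXM1 1 and 2, against 18.0 and 19.9 FPKM in shControl 1 and 2, with overlapping groups. RBL1, which pairs with E2F4, was at 8.45 and 5.18 against 9.40 and 8.97 FPKM (limma, adjusted p = 0.398). RBL2, its relative of resting cells, was at 9.78 and 12.8 against 9.83 and 9.06 FPKM, with overlapping groups (limma, adjusted p = 0.502). CDK4, a kinase that phosphorylates RB1, was at 29.5 and 28.8 FPKM in shFOXM1 and 38.9 and 38.2 FPKM in shControl, a log2 fold change of -0.39 (SE 0.10; limma, adjusted p = 0.196). CDK2, which continues that phosphorylation, stood at -0.50 (SE 0.12; limma, adjusted p = 0.189). CCNF, which targets E2F proteins for destruction, stood at -0.52 (SE 0.14; limma, adjusted p = 0.204). CDKN2C, an inhibitor of CDK4 and CDK6 and an E2F target, was at 6.03 and 3.82 FPKM in shFOXM1, against 10.2 and 9.03 FPKM in shControl. CDKN1A, the p21 inhibitor and the 1 gene higher at that level, was at 149 and 106 FPKM in shFOXM1, against 63.1 and 83.9 FPKM in shControl, and RB1, RBL1, RBL2 and CDKN1A were named in this list for their roles after the values were seen. Without shFOXM1 1 the fold changes were -0.41 for CDK4, -0.54 for CDK2, -0.67 for CCNF, -1.14 for CDKN2C and -0.72 for RBL1. Without shFOXM1 2 they were -0.37, -0.46, -0.38, -0.59 and -0.11 in that order. Without shControl 1 and 2 in turn, CDKN2C stood at -0.79 and -0.94 and RBL1 at -0.38 and -0.44.

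Lists of complexes that use repressor E2Fs had medians nearer 0 than the S phase targets. In the MuvB and DREAM list, whose complexes take in E2F4, 9 of 10 genes were tested, 0 passed limma, and the median was -0.29. At an unadjusted limma p under 0.05, 3 (MYBL2, FOXM1 and RBBP4) were lower, against 8.99% of all tested genes. FOXM1 is the targeted gene and MYBL2 is also in the S phase list, so neither adds an independent result to that count. RBBP4, a histone-binding subunit, was at 16.4 and 14.6 FPKM in shFOXM1 1 and 2, against 25.01 and 22.4 FPKM in shControl 1 and 2. In the list of the Polycomb complex of E2F6 all 13 genes were tested, 0 passed limma, 1 was lower at an unadjusted p under 0.05, a share near the 8.99% of all tested genes, and the median was -0.12. That gene, CBX3, a heterochromatin protein, was at 49.2 and 39.4 FPKM in shFOXM1, against 63.1 and 63.6 FPKM in shControl. L3MBTL2, another subunit, was at 10.3 and 9.80 against 8.21 and 8.25 FPKM, a log2 fold change of 0.26 (SE 0.11; limma, adjusted p = 0.314). YAF2 and WDR5 stood at -0.33 (SE 0.18) and -0.35 (SE 0.20), both not past limma's test (adjusted p = 0.398 and 0.407). Without shFOXM1 1, RBBP4 stood at -0.66, CBX3 at -0.67 and WDR5 at -0.61. Without shFOXM1 2, RBBP4 stood at -0.51, CBX3 at -0.36 and WDR5 at -0.09.

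Known targets of E2F6 and the apoptosis genes that E2F1 can activate were the last lists. Of 8 germline genes, a class that E2F6 silences in mouse, 3 were tested, and 0 passed limma or had an unadjusted p under 0.05. All 3 had fold changes below 0, with a median of -0.20. STAG3, a meiotic cohesin subunit, was at 3.29 and 4.06 FPKM in shFOXM1 1 and 2, against 4.61 and 4.08 FPKM in shControl 1 and 2. DDX4 and TUBA3D stayed under 2.5 FPKM in every library, with overlapping groups. Of 10 apoptosis genes 6 were tested, 0 passed limma and 1 was lower at an unadjusted p under 0.05 (8.99% of all tested genes), with 3 fold changes below 0, 3 above and a median of -0.02. That gene, APAF1, the scaffold of the apoptosome, was at 11.4 and 11.5 FPKM in shFOXM1 against 14.8 and 15.3 FPKM in shControl. BBC3, a BCL2 family protein that promotes cell death, was at 12.0 and 11.0 FPKM in shFOXM1 1 and 2, against 9.44 and 11.1 FPKM in shControl 1 and 2, with overlapping groups and a log2 fold change of 0.16 (SE 0.13). APAF1 stood at -0.36 without shFOXM1 1, -0.37 without shFOXM1 2, -0.39 without shControl 1 and -0.34 without shControl 2.

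**Figure D5:**
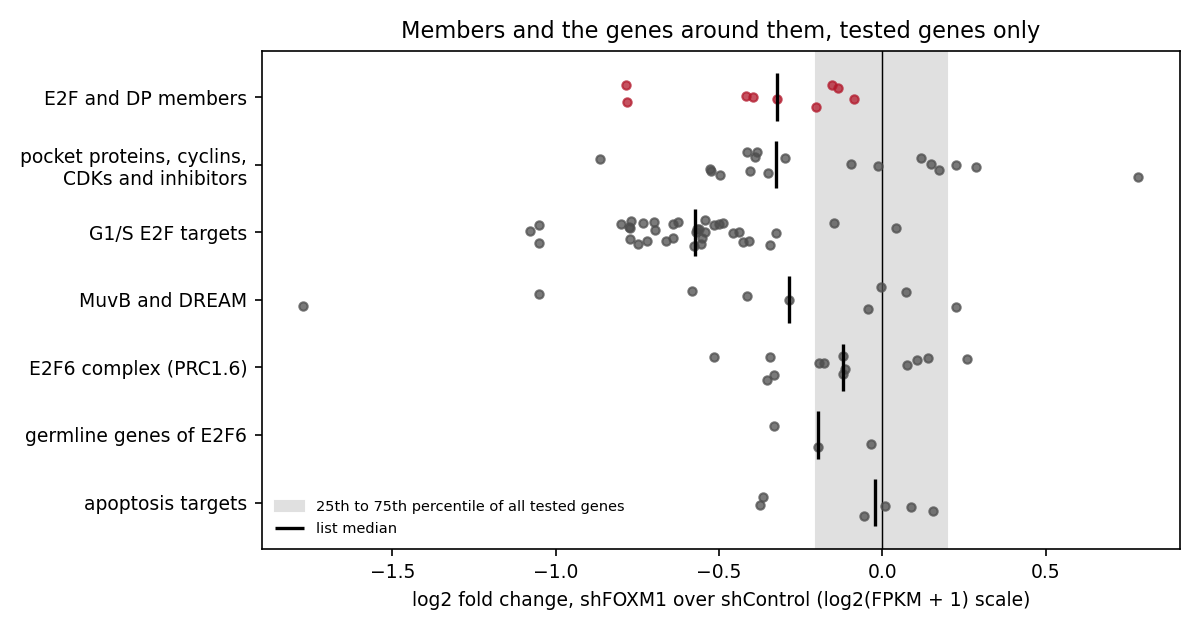
Log2 fold change, shFOXM1 over shControl, of the tested members (red) and of the tested genes of 6 lists (grey), with a bar at each median and a grey band for the middle 50% of all tested genes. The median was -0.57 for the targets of S phase entry, -0.32 for the members and -0.02 for the apoptosis genes.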

How the data were processed

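The authors deposited FPKM for 58735 genes in 4 libraries (2 shFOXM1, 2 shControl) with the gene length in bases as an other column, per the file headers. Which aligner and counter were used, and whether strand was read, is not given in the sources used here. Builds named by the submitters' processing notes are GRCm38 and mm10, while every gene identifier, position and strand in the table equals human GENCODE 29 (GRCh38). Libraries were made with a SMARTER mRNA kit, per the labels' protocols. Columns of other samples numbered 0. Multiplied by length, 100% of the deposited FPKM values came within 0.001 of a whole read; the totals implied by the FPKM differed from the recovered ones by -1.44 and 3.80% in shFOXM1 and 0.319 and -0.173% in shControl. Libraries of a group were not duplicates (chi-square per degree of freedom 36.5 in shFOXM1, 3.93 in shControl).

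The level filter kept genes reaching 1 FPKM in 2 or more libraries, and limma 3.58.1 (R 4.3.3) was fitted to log2(FPKM + 1) (trended empirical Bayes, two-sided), with Benjamini-Hochberg adjusted p under 0.05 over all 12033 genes as the call. Fold changes on this scale understate low genes. Intervals on reads are exact Poisson at 95% and cover counting error only. The fit was tested on simulated data. All 10 members, FOXM1 and up to 4 tested genes per list with the smallest unadjusted p were named, except that some are not reported here. The members and lists were chosen with earlier results of these data known. Alternatives were another pseudocount, other filters, scalings and variance models, voom on recovered reads, a replicate block and each library left out. Promoter letters were read from RefSeq; no protein sequence was used here.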

Additional observations from a re-analysis of the deposited data

How the results depend on the processing

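Across the alternatives, 127 of 134 fold changes of the 9 tested members kept direction and side of limma's threshold. Other filters, variance models and the replicate block cannot change a fold change, so part of that agreement was fixed in advance. As 0 members were called in the main fit, keeping the side meant staying uncalled. For E2F6 1 value turned sign, at 0.17 without shFOXM1 1, where single libraries left out gave -0.34 to 0.17. The remaining values newly passed the threshold, all with an shFOXM1 library left out, so that the shControl pair alone sets the spread. Leaving out single libraries gave 0 to 4 members called lower and 0 higher, among 0 to 1744 genes lower and 0 to 1360 higher. It gave 5 to 8 members whose groups did not overlap with shFOXM1 lower, beside 33.1 to 44.8% of all tested genes. Voom with library weights called 9 genes lower and 22 higher, with 0 members. FOXM1, UHRF1, TK1 and MYBL2 were among those lower. With E2F1 and E2F4 left out, the activator to repressor difference was -0.33. Scaling by recovered read totals, chosen after seeing the data, called 0 genes. Libraries with the same number shared little deviation (correlation 0.0421), and the labels do not pair them; with a replicate block 0 genes were called, and E2F1 stood at -0.79 (limma, adjusted p = 0.191). Over all alternatives the fold change ran from -0.91 to -0.66 for E2F1 and from -0.89 to -0.68 for E2F2. For E2F7 it ran from -0.62 to -0.02 and for TFDP1 from -0.45 to -0.34. With a library left out, limma's adjusted p depends on which pair sets the spread. Of 281 values for other named genes, 21 newly passed and 1 turned sign, TUBA3D at 0.19 without shFOXM1 1 (range -0.26 to 0.19). The cause was not tested. Depth limits E2F5. The planned protein comparison was not run.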
